A study of Mus musculus with 38 samples.

Results

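The clustered protocadherin genes are tandem arrays of cell-surface genes on mouse chromosome 18. They were taken here as all protein-coding genes of GENCODE vM21 on that chromosome whose symbol starts with Pcdha, Pcdhb or Pcdhg. The rule found 57 of 21938 protein-coding genes, all on the plus strand of GRCm38: 14 in the Pcdha cluster (36930184 to 37187661), 22 in Pcdhb (37264938 to 37524479) and 21 in Pcdhg (37661793 to 37841873). For each gene a window was set as the first exon of its main coding transcript plus 1 kb upstream, and 21853 protein-coding genes had such a window. The annotation gives the symbol Pcdha11 to 2 genes, and the first of them along the chromosome is called Pcdha10 here, after the RefSeq gene at the same place.

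Clustered protocadherins are cadherin-type adhesion proteins best known from neurons, where each cell uses its own combination of them and so carries a surface identity. In Pcdha and Pcdhg every variable first exon has its own promoter and encodes the extracellular part of a protein, and it is spliced to constant exons at the end of the cluster that encode a shared cytoplasmic part. Pcdhb genes consist of a single coding exon and share no constant exons. The last variable exons of Pcdha and Pcdhg, called c-type (Pcdhac1, Pcdhac2, Pcdhgc3, Pcdhgc4 and Pcdhgc5), differ in sequence and regulation from the alternate exons before them. Promoter choice is known to involve CTCF, cohesin and enhancers near the ends of the clusters, and silencing to involve DNA methylation, H3K9 methylation and SMCHD1.

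ChIP-seq was carried out on ES-E14TG2a mouse embryonic stem cells (mESCs) grown on gelatin with serum and leukemia inhibitory factor (LIF) and taken at 0 h, before any differentiation. IκBα-KO cells (IkappBalpha-/- in the labels) lacked the NF-κB inhibitor IκBα after CRISPR/Cas9 cutting of Nfkbia, and IκBα-WT cells (IkappBalpha+/+) had gone through the same procedure with a scrambled guide. The study describes 3 independent clones of each genotype, and each of 5 histone marks had 3 WT and 3 KO libraries, named WT1 to WT3 and KO1 to KO3 below. Since the clones were grown from sorted cells, a difference between clones and an effect of the deletion can be separated only by the agreement of the 3 clones of a genotype, and the lists hold no measure of IκBα itself.

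The marks differ in where they are known to lie: H3K4me3 at active and poised promoters, H3K27me3 at genes held silent by Polycomb, H3K9me3 in constitutively silent chromatin and over repeats, H3K27ac where promoters or enhancers are in use, and H3K4me1 at enhancers and on the shoulders of promoters. Each list holds the stretches called as enriched in 1 library against 1 input per genotype, so that the values were the sequence under calls and, for all marks but H3K4me3, the ChIP reads in them. A library had between 8910890 and 10938375 ChIP reads inside its H3K27me3 calls, the range for H3K9me3 being 8548342–12105343, that for H3K27ac 22943091–28339766 and that for H3K4me1 34736939–35951506. H3K4me3 lists held 21836 to 26806 peaks and no counts, so the depth of these libraries is unknown. In both genotypes the windows of 7 of 8 pluripotency genes carried H3K4me3 and 8 of 8 carried H3K27ac in at least 2 of 3 libraries, and H3K27me3 lay over 6 of 6 neural progenitor, 3 of 5 neuron, 4 of 4 endoderm and 4 of 5 fibroblast genes. H3K27ac was also called at 6 (WT) and 5 (KO) of the 6 neural progenitor genes, at 3 of 5 neuron, 3 of 4 endoderm and 2 of 5 fibroblast genes in each genotype, so it did not by itself separate the lists. Nor did H3K4me3, called at 6 (WT) and 5 (KO) of 6 neural progenitor and 4 (WT) and 3 (KO) of 5 neuron genes. It was also called at 3 of 4 endoderm and 1 of 5 fibroblast genes in each genotype. H3K27me3 was called at 2 of 8 pluripotency genes in each. The labels and the study's methods disagree on which antibody was used against H3K27ac, so that mark is taken as labelled. In ChIP on bulk cells, fewer cells with a mark and less of the mark per cell cannot be told apart.

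The 3 clusters carried different combinations of marks (the map of calls over the locus). Member windows were long, from 3346 bp (Pcdha5) to 9695 bp (Pcdhb14), and an overlap of 1 bp counted as a call. The windows of all genes were not matched to them in length, and that of the neighbour Diaph1 was 1180 bp. Shares of all genes, here and below, therefore do not compare windows of like length, and the part of length was not tested. H3K27me3 was called in at least 2 of 3 WT libraries at 55 of 57 members, against 33.4% of all genes, and in KO also at 55, against 33.8%. H3K9me3 was called at 13 members in WT and 12 in KO, against 5.34% and 4.35% of all genes. H3K4me3 was called at 21 members in each genotype, against 55.7% and 55.8% of all genes. H3K4me1 was called at 39 members in WT and 40 in KO (67.4% and 65.9% of all genes), and H3K27ac at 4 members in each (59.4% and 57.7%). H3K9me3 lay mostly over Pcdha with 9 members in each genotype, while H3K4me3 lay mostly over Pcdhg with 15 members in WT and 18 in KO, and H3K27ac was called only at Pcdhg members by this count.

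**Figure D1:**
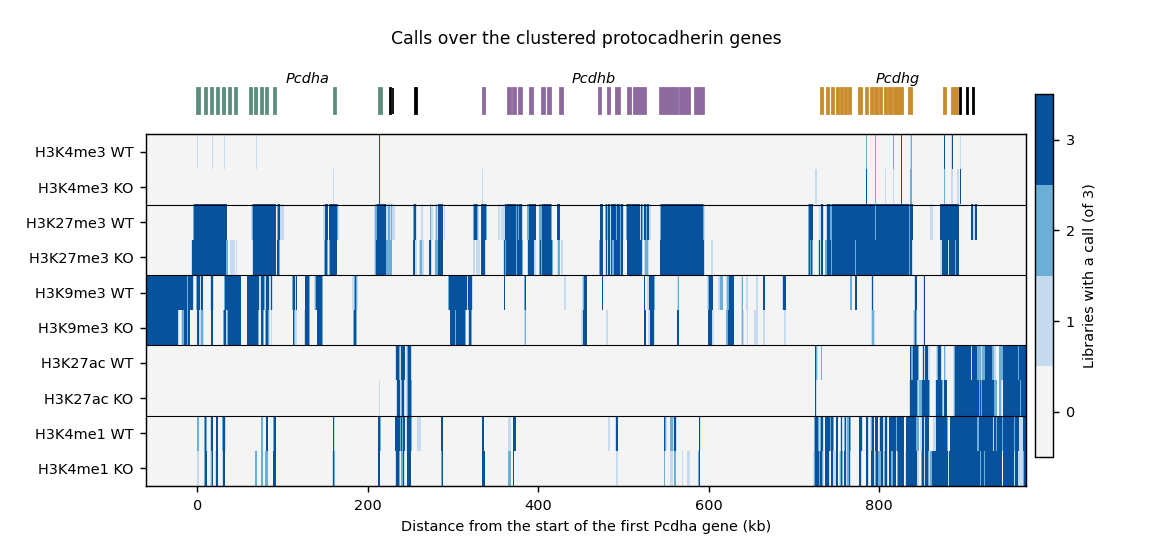
Calls of 5 marks over the 3 clusters, with the distance from the start of the first Pcdha gene in kb on the horizontal axis and 1 row per mark and genotype. Colour gives the number of the 3 libraries with a call in each 500-bp bin, and bars at the top mark first exons of members (green Pcdha, purple Pcdhb, orange Pcdhg) and constant exons (black). H3K9me3 fills the stretch before Pcdha and blocks inside it, H3K27me3 covers most of Pcdhb and Pcdhg, and H3K27ac lies mainly at the end of Pcdhg and beyond it, with shorter stretches at the end of Pcdha and before Pcdhg.

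To compare the genotypes by cluster, the sequence under calls was summed per library and the genotype means were compared by an exact permutation test (two-sided), which runs through all 20 ways to pick 3 of the 6 libraries. It cannot give a p below 0.1, so no difference in covered sequence could reach 0.05, and after adjustment over the 14 comparisons none was below 0.28. The differences that reached 0.1, in which the 3 KO libraries all lay on 1 side of the 3 WT libraries, are given below as such. The plot of covered sequence by cluster shows all 15 combinations.

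**Figure D2:**
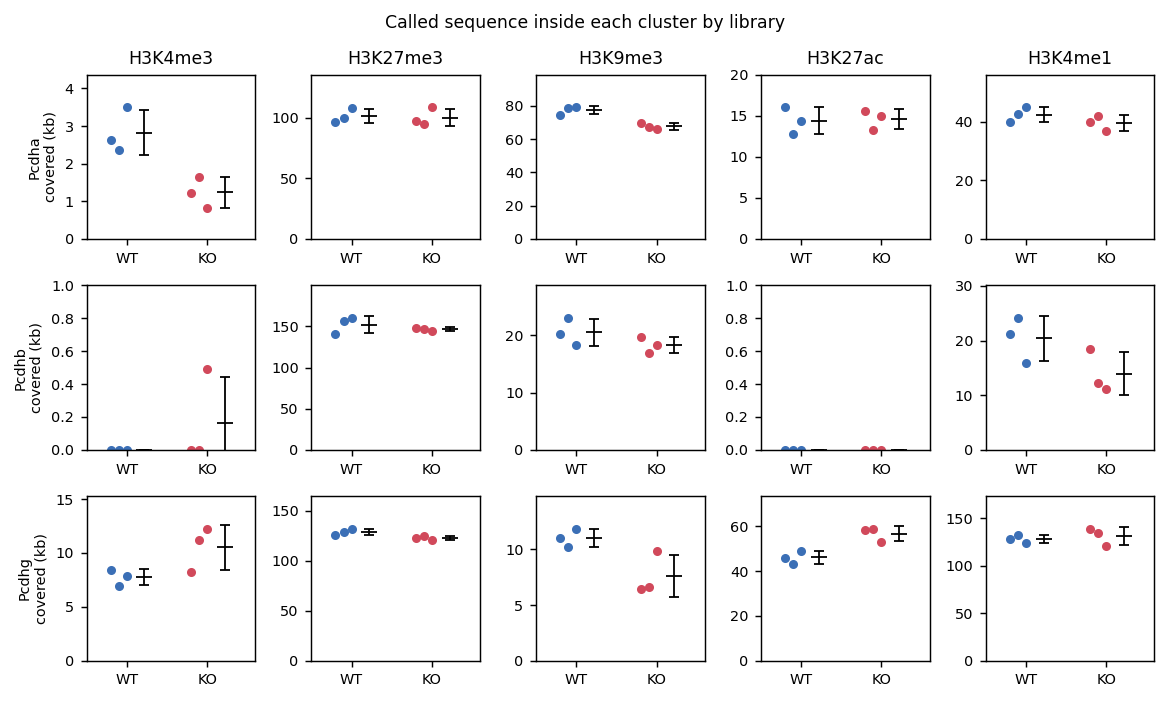
Sequence under calls (kb) in each cluster (rows) and mark (columns). Each point is 1 library, WT in blue and KO in red, and black bars show the mean and SD of the 3 libraries. KO libraries lie below all WT libraries for H3K4me3 and H3K9me3 over Pcdha and for H3K27me3 and H3K9me3 over Pcdhg, and above them for H3K27ac over Pcdhg.

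The largest block of H3K9me3 at the members lay over the alternate exons of Pcdha. Pcdha8 and Pcdha9 were covered over the whole window in all 6 libraries (3478 and 3481 bp). Pcdha6 was covered over 3507 bp in 5 libraries and 3337 bp in KO2, and Pcdha7 over 3477 bp in 5 libraries and 2677 bp in KO3. Pcdha1, Pcdha3, Pcdha5, Pcdha10 and Pcdha11 were covered in part, and Pcdha2, Pcdha4, Pcdha12 and both c-type exons were free of H3K9me3 in all 6 libraries. Of these, 3 neighbours had little H3K27me3: Pcdha6 had H3K27me3 in KO3 alone (737 bp), Pcdha7 in KO1 and KO3 (1278 and 1199 bp) and Pcdha8 in WT2, WT3 and KO3 (648, 1448 and 848 bp). The other 11 Pcdha windows were covered by H3K27me3 from end to end in all 6 libraries, among them Pcdha9, which lay under both marks.

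Over the whole Pcdha cluster H3K9me3 covered 74.6, 78.8 and 79.0 kb in WT and 69.8, 67.0 and 66.0 kb in KO. The means were 77.5 ± 2.49 kb and 67.6 ± 1.97 kb (SD, n = 3 each), a difference of -9.88 kb or -12.7% (exact permutation test, p = 0.1, adjusted p = 0.28). H3K9me3 calls covered less of the genome in KO too, with 172.5 to 185.7 Mb against 201.7 to 207.3 Mb, and less of the 100 kb before Pcdha, with 76.6 to 82.0 kb against 90.8 to 92.2 kb. The part of this genome-wide difference in the Pcdha value was not tested. Input reads over the H3K9me3 calls of Pcdha were 18.7 to 19.3 per kb in WT and 21.2 to 21.6 in KO. Over all H3K9me3 calls of the genome they were 20.9 in each WT library and 22.1 to 22.4 in KO. With 1 input library per genotype, its part was not tested either. Reads per kb of called H3K9me3 sequence in Pcdha overlapped between genotypes, at 69.6, 57.1 and 56.7 in WT and 66.3, 50.6 and 54.3 in KO (exact permutation test, p = 0.5). These densities are not scaled for library level. Over all H3K9me3 calls of the genome they were 59.2, 50.8 and 51.0 in WT and 62.1, 49.6 and 50.9 in KO, with WT1 and KO1 highest there too.

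Inside the cluster most H3K9me3 lay outside the promoters. Member windows make up 18.8% of Pcdha, and they held 32.9 ± 1.77% of its H3K9me3 calls in WT and 37.9 ± 1.70% in KO. Pcdha1 was the only member with a shorter H3K9me3-covered length in every KO library than in any WT library, with 2472, 3388 and 3388 bp in WT and 2200, 2200 and 2272 bp in KO. With windows of 1 kb on either side of the 5′ end it no longer met that rule. The reads per kb of its region overlapped, at 46.3, 33.8 and 34.5 in WT and 44.4, 48.2 and 29.1 in KO. Over all genes 0.54% met that rule, and 0.21% met it in the other direction. The called region with the strongest H3K9me3 among the members, over Pcdha5 to Pcdha7 (36960401 to 36981800), held 87.4, 74.5 and 75.9 reads per kb in WT and 69.9, 57.0 and 62.7 in KO. Its log2 fold change was -0.31 ± 0.067 (SE) and did not pass edgeR's quasi-likelihood test (adjusted p = 0.0661). The next region, over Pcdha8 to Pcdha11 (36988201 to 37015400), had 74.0, 64.4 and 64.1 reads per kb in WT and 75.7, 50.9 and 55.6 in KO, so its groups overlapped through KO1. In edgeR, which scales for library level, its log2 fold change was -0.15 ± 0.069 (SE, adjusted p = 0.473).

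H3K4me3 at Pcdha was sparse, with fewer peaks in each KO library than in any WT library. WT libraries had 6, 5 and 7 members with a peak and KO libraries 3, 3 and 2 (exact permutation test, p = 0.1, adjusted p = 1 over 14 comparisons). The covered sequence was 2.62, 2.36 and 3.49 kb in WT and 1.23, 1.66 and 0.836 kb in KO, or 2.83 ± 0.592 kb against 1.24 ± 0.411 kb (SD, n = 3 each), a difference of -56.1% (exact permutation test, p = 0.1, adjusted p = 0.28). All of this sequence lay inside member windows. Over the genome, H3K4me3 peaks covered 19.0 to 22.1 Mb in KO and 17.2 to 19.3 Mb in WT, with KO1 inside the WT range.

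Of the alternate Pcdha exons, Pcdha3 had a peak in all 3 WT libraries (313, 328 and 332 bp) and in no KO library. It was the only member called in 1 genotype alone for any mark, and 0.275% of all genes met that rule for H3K4me3 in this direction and 0.307% in the other. For the marks at which no member met it, the shares of all genes called in WT alone and in KO alone were 0.503% and 0.439% (H3K27me3), 0.339% and 0.0686% (H3K9me3), 0.92% and 0.261% (H3K27ac), and 0.508% and 0.16% (H3K4me1). Its peaks were centred 1986.5, 2020 and 1927 bp downstream of the 5′ end, inside the exon, and no call remained within 1 kb of the 5′ end. At an overlap of at least 10% of the window 0 members were called in WT alone and 1 in KO alone. Pcdha5 was the alternate exon with the most H3K4me3 in KO, at 237, 260 and 284 bp against 301, 0 and 763 bp in WT. Pcdha4 and Pcdha9 each had a peak in 2 WT libraries and Pcdha1, Pcdha2 and Pcdha12 in 1, all without a KO peak. Pcdha6, Pcdha7, Pcdha8, Pcdha10 and Pcdha11 had no peak in any library.

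Among c-type exons of Pcdha, Pcdhac2, the last variable exon of the cluster, had the widest H3K4me3 peak. It covered 1097, 1026 and 1118 bp in WT and 666, 741 and 552 bp in KO, and the groups did not overlap. Pcdhac2 and Pcdha3 were the 2 members with lower H3K4me3 in every KO library, a rule that 4.42% of all genes met. Pcdhac1 had 264, 457 and 353 bp in WT and 327, 656 and 0 bp in KO, and its groups overlapped. H3K4me1 covered 3200, 3298 and 2898 bp of the Pcdhac2 window in WT and 2498, 2800 and 2600 bp in KO. The reads per kb of its H3K4me1 region went the other way, at 77.2, 76.4 and 78.8 in WT and 87.5, 82.1 and 79.6 in KO (log2 fold change 0.14 ± 0.10 (SE), edgeR, adjusted p = 0.503). H3K27me3 covered its whole window (4028 bp) and that of Pcdhac1 (3559 bp) in all 6 libraries, and H3K27ac was called at Pcdhac2 in KO1 alone (1000 bp).

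**Figure D3:**
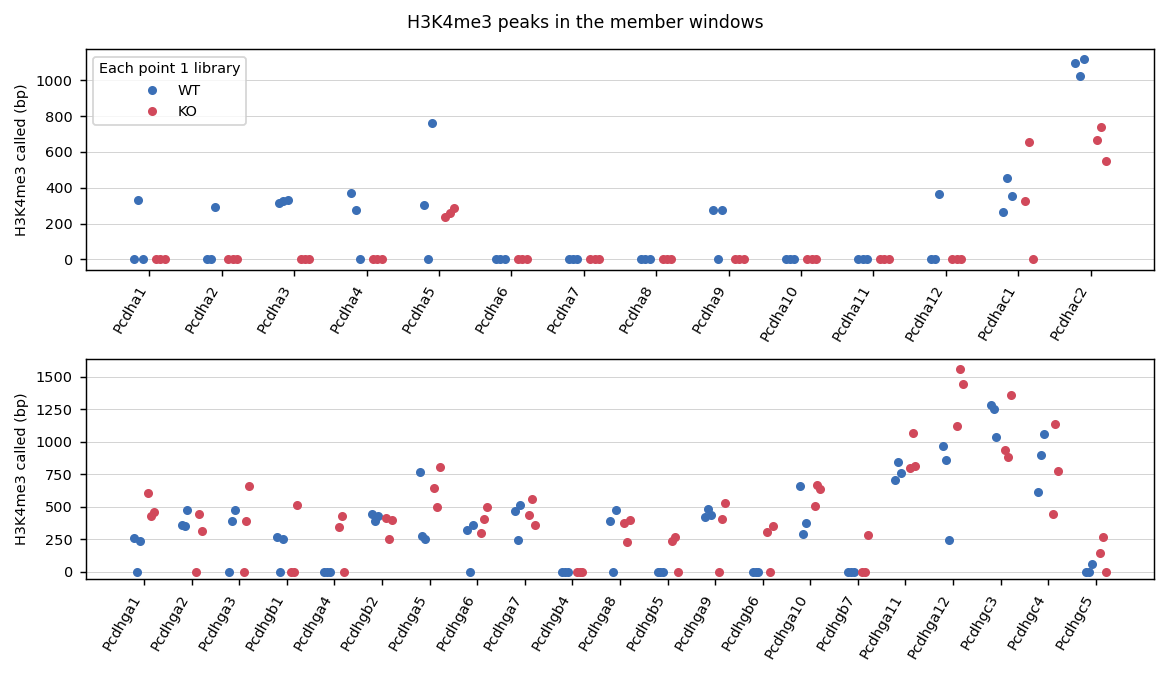
H3K4me3 called in each member window (bp), in genome order for Pcdha (top) and Pcdhg (bottom), with 1 point per WT (blue) or KO (red) library. Pcdhac2 and Pcdha3 have less in every KO library than in any WT library, and Pcdhga1 and Pcdhga12 have more. Pcdhb is not shown, since its only peaks were those of Pcdhb1 and Pcdhb22 in KO3.

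H3K27ac in Pcdha lay past the promoters, in the interval between the second and the last constant exon. It formed 2 regions called in all 6 libraries (37162401 to 37173800 and 37174601 to 37182000). Their reads per kb were 51.9, 55.1 and 52.9 in WT and 50.0, 51.0 and 44.6 in KO for the first, and 49.4, 60.3 and 54.4 in WT and 55.2, 53.4 and 40.3 in KO for the second. Neither passed the edgeR test (log2 fold changes of -0.14 ± 0.073 and -0.15 ± 0.11 (SE), adjusted p = 0.252 and 0.422). H3K27ac covered 16.0, 12.8 and 14.4 kb of the cluster in WT and 15.6, 13.2 and 15.0 kb in KO (exact permutation test, p = 0.9). H3K27me3 covered 96.6, 100.2 and 108.1 kb of Pcdha in WT and 97.0, 95.0 and 108.6 kb in KO (p = 0.8 by the same exact test), and H3K4me1 39.8, 42.6 and 44.8 kb in WT and 39.8, 42.0 and 36.8 kb in KO (exact p = 0.3).

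Pcdhb was the cluster with the fewest marks. All 22 members carried H3K27me3 in all 6 libraries, and 11 of them were covered from end to end in each. Pcdhb19 had the highest mean, with 8138 bp in every library, and Pcdhb8 the least, with 2000 bp in KO1 and 1330 bp in the other 5 libraries. The cluster was covered over 140.5, 156.3 and 159.7 kb in WT and 148.5, 147.3 and 144.1 kb in KO (exact permutation test, p = 0.4). Reads per kb in these calls were 47.9, 47.2 and 47.8 in WT and 47.0, 46.6 and 48.3 in KO (exact permutation test, p = 0.6). No Pcdhb member carried H3K27ac, and H3K4me3 was called at none in WT and in KO3 alone at Pcdhb1 (294 bp) and Pcdhb22 (354 bp).

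H3K4me1 at Pcdhb was partial and lay wholly within H3K27me3: 18.1 kb of consensus sequence in WT and 12.3 kb in KO, each 100% inside the H3K27me3 consensus (sequence called in at least 2 of 3 libraries). It was called at 8 members in each genotype. Pcdhb3 had 3000, 3400 and 2800 bp in WT and 1600, 1000 and 1400 bp in KO, and Pcdhb16 had 2200, 3800 and 2400 bp in WT and 0, 1000 and 1600 bp in KO. With Pcdhac2 these were the 3 members with a shorter H3K4me1-covered length in every KO library, against 3.83% of all genes. Pcdhb1, the first gene of the cluster, went the other way with 2600 bp in each WT library and 3400, 3263 and 3000 bp in KO, as did Pcdha4 with 2750 bp in each WT library and 3350, 2950 and 3150 bp in KO, and 0.517% of all genes met that rule. Their mean reads per kb were lower in KO, without overlap at Pcdha4 and with KO3 inside the WT range at Pcdhb1. The Pcdha4 region had 71.4, 65.7 and 69.3 in WT and 57.4, 59.7 and 58.5 in KO (log2 fold change -0.20 ± 0.11 (SE), edgeR, adjusted p = 0.371), and the Pcdhb1 region 87.7, 85.4 and 97.3 in WT and 74.7, 71.8 and 86.0 in KO (-0.18 ± 0.11, adjusted p = 0.431). With windows of 1 kb on either side of the 5′ end, 1 member had more and 1 less H3K4me1 without overlap. Over the cluster H3K4me1 covered 21.3, 24.1 and 15.9 kb in WT and 18.5, 12.3 and 11.1 kb in KO (exact permutation test, p = 0.2).

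H3K9me3 was called at few Pcdhb members. Pcdhb14 had 1400, 1600 and 2000 bp in WT and 2200, 2200 and 2550 bp in KO, and Pcdhb18 had 905, 0 and 1305 bp in WT and 1705 bp in each KO library. These were the 2 members with a longer H3K9me3-covered length in every KO library (0.21% of all genes, as above), and with windows of 1 kb on either side of the 5′ end there were 0. The reads per kb did not rank that way. The Pcdhb18 region had 46.0 and 42.9 in WT1 and WT3 and 34.2, 31.7 and 33.2 in KO, and the Pcdhb14 region had 45.7, 45.0 and 41.0 in WT and 42.7, 40.9 and 33.3 in KO (log2 fold change -0.16 ± 0.19 (SE), edgeR, adjusted p = 0.834). The cluster as a whole had 20.2, 23.0 and 18.4 kb in WT and 19.8, 17.0 and 18.4 kb in KO (exact permutation test, p = 0.3). Member windows held 12.1 ± 5.54% of the cluster's H3K9me3 in WT and 24.2 ± 1.98% in KO, below the 42.5% of the cluster that they make up. Between the windows, 2 short H3K9me3 regions (37289601 to 37291600 and 37405001 to 37406600) were called in all 3 WT libraries, at 57.5, 36.1 and 36.7 and at 50.0, 38.8 and 39.3 reads per kb, and in no KO library. With 1 in Pcdhg (37701001 to 37704200) they were the 3 of 33 H3K9me3 regions around the clusters called in WT alone, and 2.58% of merged H3K9me3 regions of the genome were.

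**Figure D4:**
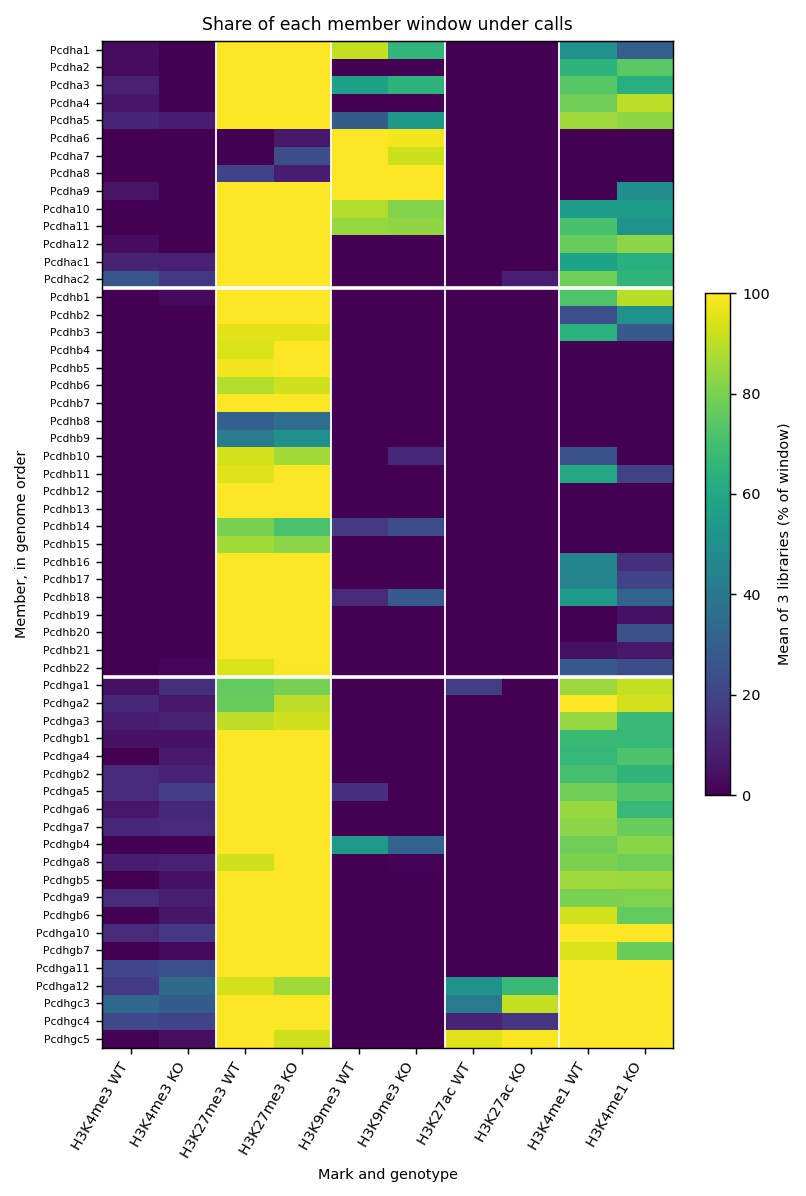
Share of each member window under calls (mean of 3 libraries, % of the window, colour), for the 57 members in genome order (rows) by mark and genotype (columns). Broad white lines separate Pcdha, Pcdhb and Pcdhg. Pcdha6 to Pcdha8 are covered by H3K9me3 and have the least H3K27me3 of all members, Pcdhb members carry H3K27me3 with H3K4me1 at some, and Pcdhga12, Pcdhgc3 and Pcdhgc5 are the members with most H3K27ac.

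Pcdhg carried H3K27me3 and H3K4me1 at every member in all 6 libraries, with H3K4me3 at most of them. In WT, 11 of 21 members had H3K4me3, H3K27me3 and H3K4me1 together and no other mark in at least 2 of 3 libraries, and 3 more had H3K27ac as well. In KO these numbers were 14 and 4. The 4 include Pcdhgc5, which counted for H3K4me3 in KO only through the edge of a region that ran past its window. H3K4me3 was called at 14, 11 and 16 members in WT and 15, 17 and 17 in KO (exact permutation test, p = 0.2), and covered 8.42, 6.95 and 7.87 kb in WT and 8.20, 11.2 and 12.2 kb in KO (exact permutation test, p = 0.2), with KO1 inside the WT range.

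The Pcdhg subfamilies differed in H3K4me3. The a-type exons (Pcdhga1 to Pcdhga12) had a peak at 10, 8 and 11 of 12 in WT and 9, 12 and 11 in KO, and the b-type exons at 2, 1 and 2 of 6 in WT and 3, 2 and 4 in KO. Pcdhgb4 had none in any library, and Pcdhgb5, Pcdhgb6 and Pcdhgb7 had none in WT. In KO, Pcdhgb5 had 235, 265 and 0 bp, Pcdhgb6 307, 0 and 351 bp and Pcdhgb7 0, 0 and 283 bp. Pcdhgb4 instead carried the most H3K9me3 of the cluster, at 2517, 1717 and 1517 bp in WT and 1117, 0 and 2317 bp in KO. The b-type windows share more sequence with other members, which is described below, and its part in their low number of peaks was not tested.

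Pcdhga1 and Pcdhga12, both a-type exons, had more H3K4me3 in every KO library than in any WT library, and 9.22% of all genes met that rule. Pcdhga1 is the first gene of the cluster and had 258, 0 and 235 bp in WT and 605, 427 and 457 bp in KO. Pcdhga12 is the last alternate exon and had 965, 855 and 245 bp in WT and 1121, 1559 and 1440 bp in KO, part of it more than 2 kb downstream of the 5′ end. Pcdhga1 carried the least H3K27me3 of Pcdhg, at 3208, 2365 and 2565 bp in WT and 3573, 2173 and 2773 bp in KO. It also had H3K27ac in WT1 and WT3 (1000 bp each) and in no KO library. Pcdhga12 had H3K4me1 over its whole window (3961 bp) in all 6 libraries and H3K27ac over 2540, 1000 and 2540 bp in WT and 2340, 2540 and 3140 bp in KO. The centres of the H3K4me3 peaks of Pcdhg had a median offset of 249 bp downstream of the 5′ end over 48 WT peaks and 274 bp over 60 KO peaks, with a range from -265 to 2814 bp in WT and from -285 to 2724 bp in KO. Peaks reached into the Pcdhgc5 window only at its far end, and were centred at 2814 bp in WT3, 2615 bp in KO1 and 2723 bp in KO2. The window ends at 37822134, so the WT3 and KO2 centres lay past it. These peaks belonged to 1 region (37821868 to 37822982) called in all 6 libraries. It was covered over 0.508, 0.238 and 0.504 kb in WT and 0.276, 0.737 and 0.683 kb in KO.

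Over the whole Pcdhg cluster H3K27me3 covered 126.1, 129.0 and 131.6 kb in WT and 122.4, 124.4 and 120.6 kb in KO. The means were 128.9 ± 2.76 and 122.5 ± 1.90 kb (SD, n = 3 each), a difference of -4.98% (exact permutation test, p = 0.1, adjusted p = 0.28), while H3K27me3 calls covered more of the genome in KO (266.6 to 278.2 Mb against 214.1 to 258.9 Mb). The density of ChIP reads in these calls was 78.3, 84.4 and 83.5 in WT and 72.0, 73.7 and 74.8 per kb in KO, a difference of -10.4% (exact permutation test, p = 0.1, adjusted p = 0.55 over 11 comparisons). Input reads over the same calls went the other way, at 17.5 per kb in each WT library and 20.3 to 20.6 in KO, and over all H3K27me3 calls of the genome at 17.1 to 17.3 in WT and 19.7 to 19.8 in KO. The part of the input, of which there was 1 library per genotype, was not tested.

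The lower H3K27me3 was called as significant at the c-type end of the cluster. The region over Pcdhgc3, Pcdhgc4 and Pcdhgc5 (37801001 to 37824400) held 80.4, 82.6 and 83.1 reads per kb in WT and 61.4, 58.2 and 60.9 in KO, with no overlap. Scaled to the other tested H3K27me3 regions, its density was lower in KO by 0.46 ± 0.067 (SE) on the log2 scale (edgeR's quasi-likelihood test, adjusted p = 0.00122 over 18809 regions). According to the study's methods, Drosophila spike-ins were present for this mark and were discarded. The values therefore give the density relative to other regions and not the absolute level of the mark. This was the only 1 of 20 H3K27me3 regions tested in or around the clusters that passed. Over the genome 1.04% of tested regions were lower and 1.7% higher in KO, and the median log2 fold change was 0.016 over the 20 regions and -0.0023 over all. The covered length was also lower, at 22.2, 22.6 and 23.0 kb in WT and 19.2, 20.8 and 18.6 kb in KO, and without the correction for length the log2 fold change was -0.71. Input reads per kb were 20.4 in WT and 21.5 in KO. The call remained under each of the alternatives tried, with log2 fold changes of -0.50 to -0.41 when any 1 library was left out. The large region before it, over most a-type and b-type exons (37666201 to 37770400), had 82.0, 87.3 and 85.5 reads per kb in WT and 74.9, 77.4 and 78.1 in KO (log2 fold change -0.15 ± 0.062 (SE), edgeR, adjusted p = 0.25).

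**Figure D5:**
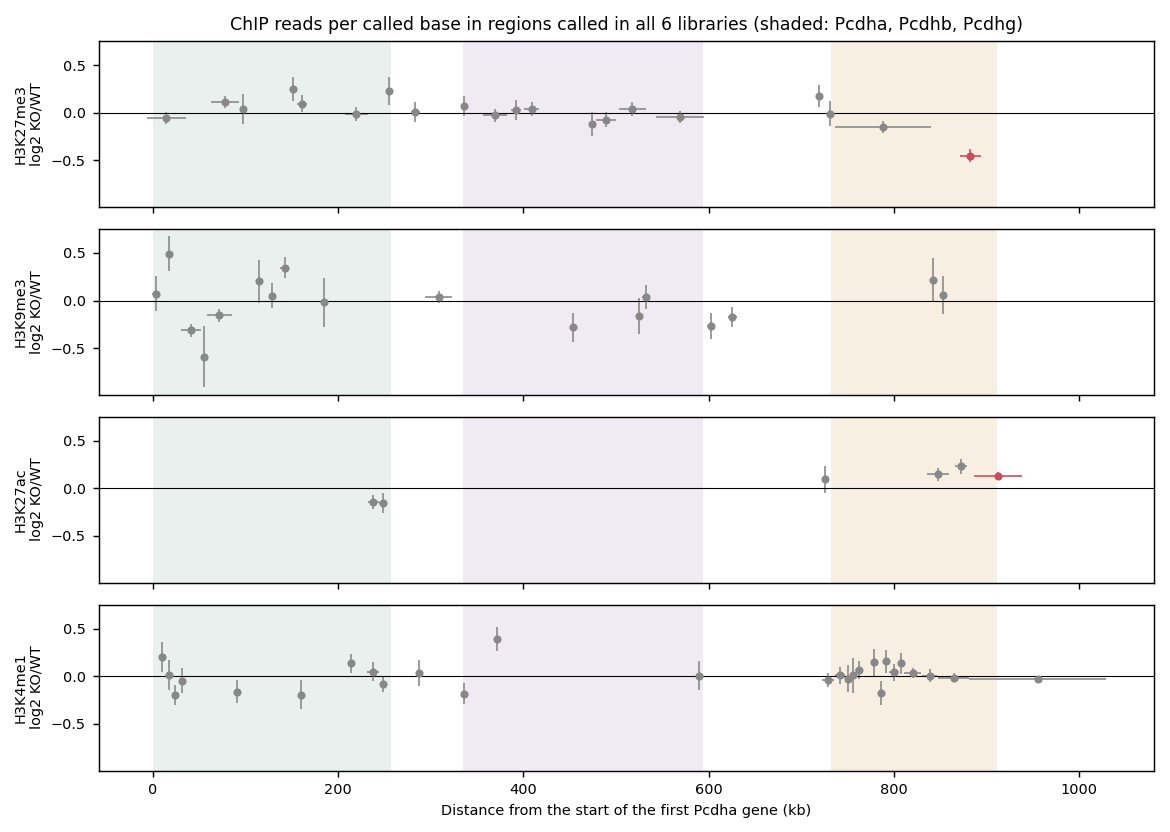
Log2 fold change (KO over WT) of ChIP reads per called base for every region called in all 6 libraries in or around the clusters, with the distance from the first Pcdha gene in kb on the horizontal axis. Horizontal bars show the extent of a region, and red points the 2 regions with an adjusted p below 0.05. Vertical bars show a standard error derived from the edgeR test statistic. The red H3K27me3 region lies at -0.46 and the red H3K27ac region at 0.14, both at the end of Pcdhg.

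The windows of the 3 c-type exons of Pcdhg were covered by H3K27me3, over 3568 bp for Pcdhgc3 and 3905 bp for Pcdhgc4 in all 6 libraries and over 3622 bp for Pcdhgc5 in all but KO1 (2822 bp). They were also covered whole by H3K4me1 in all 6 libraries and were free of H3K9me3. Pcdhgc3 had the most H3K4me3 of all members in WT, at 1282, 1254 and 1038 bp in WT and 934, 882 and 1360 bp in KO. Pcdhgc4 had 615, 898 and 1057 bp in WT and 441, 1136 and 776 bp in KO, and Pcdhgc5 0, 0 and 59 bp in WT and 144, 267 and 0 bp in KO, so that none of the 3 differed beyond the spread of its libraries. The Pcdhgc5 values were the edge inside its window of the region at 37821868 to 37822982, which was called in all 6 libraries. H3K27ac covered Pcdhgc5 over 3622, 3622 and 3134 bp in WT and 3622, 3534 and 3622 bp in KO, the most of any member. At Pcdhgc3 it covered 0, 1400 and 3000 bp in WT and 3568, 3177 and 2977 bp in KO, where KO3 lies just below WT3. At Pcdhgc4 it covered 0, 1183 and 0 bp in WT and 1183, 0 and 583 bp in KO. No member had H3K27ac that differed without overlap, and over all genes 1.11% were higher and 1.78% lower in this way.

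H3K27ac covered more of Pcdhg in KO, with 45.9, 43.3 and 49.1 kb in WT and 58.5, 58.7 and 52.9 kb in KO. The means were 46.1 ± 2.91 and 56.7 ± 3.29 kb (SD, n = 3 each), a difference of 23.0% (exact permutation test, p = 0.1, adjusted p = 0.28), beside 380.4 to 392.5 Mb of the genome in WT and 410.6 to 419.2 Mb in KO. Most of it lay outside member windows, which held 17.3 ± 2.13% of it in WT and 17.9 ± 1.92% in KO. Input reads over the H3K27ac calls of Pcdhg were 34.0 to 35.1 per kb in WT and 32.6 to 33.1 in KO. Over all H3K27ac calls of the genome they were 31.3 to 31.4 in WT and 30.9 in KO. With 1 input library per genotype, its part in the covered length was not tested. The region that holds Pcdhga12 (37765401 to 37789800) was covered over 18.8, 11.0 and 16.6 kb in WT and 22.6, 22.6 and 18.2 kb in KO. The region before and over Pcdhgc3 (37795601 to 37809400) was covered over 3.4, 8.0 and 8.6 kb in WT and 10.8, 12.8 and 10.2 kb in KO, and its 41.8, 42.2 and 48.5 reads per kb in WT and 52.5, 54.2 and 50.0 in KO did not pass the edgeR test (log2 fold change 0.23 ± 0.083 (SE), adjusted p = 0.0971).

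The third H3K27ac region of Pcdhg ran from Pcdhgc4 over the constant exons into Diaph1, the gene downstream (37816801 to 37868800). It held 63.4, 67.7 and 69.7 reads per kb in WT and 76.1, 79.5 and 66.2 in KO, with KO3 inside the WT range. Over all H3K27ac calls of the genome the density was 60.1, 62.0 and 63.9 in WT and 68.1, 67.6 and 58.3 in KO. Scaled to the other tested H3K27ac regions, the density of this region was higher in KO by 0.14 ± 0.032 (SE) on the log2 scale (edgeR, adjusted p = 0.0163 over 24039 regions). Over the genome 8.19% of tested H3K27ac regions were higher and 4.56% lower in KO. The call was lost without TMM scaling (0.07, adjusted p = 0.14), without WT1 (0.12, adjusted p = 0.0523) and without KO2 (0.12, adjusted p = 0.0745) in the same edgeR fit. None of the 17 H3K9me3 and 27 H3K4me1 regions tested in or around the clusters passed, with genome shares of 0.168% higher and 0.267% lower for H3K9me3 and of 4% higher and 1.64% lower for H3K4me1. Of the H3K9me3 regions, 4 had an unadjusted edgeR p under 0.05, 2 with lower and 2 with higher density in KO. The smallest p was that of the Pcdha5 to Pcdha7 region. Over the genome, 1423 of 27342 tested H3K9me3 regions were higher and 1348 lower at that unadjusted threshold. For H3K4me1, 1 region in or around the clusters met it, against 4630 higher and 3670 lower of 44625 over the genome. This H3K4me1 region, at Pcdhb3 (37300401 to 37303800), had 60.3, 66.8 and 59.6 reads per kb in WT and 73.8, 85.0 and 82.1 in KO over a shorter covered length (log2 fold change 0.40 ± 0.13 (SE), edgeR, adjusted p = 0.0972).

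The constant exons of the 2 clusters that have them were marked differently. The 3 constant exons of Pcdhg lay wholly under H3K27ac and H3K4me1 in all 6 libraries, while those of Pcdha carried neither mark in any library, and its last constant exon carried H3K27me3 over 1655, 1655 and 2712 bp in WT and 1455, 1455 and 2655 bp in KO. At the last constant exon of Pcdhg H3K27me3 was called over 771, 298 and 98 bp in WT and nowhere in KO. This came from 2 regions (37837401 to 37840600 and 37841801 to 37845400) called in all 3 WT libraries, at 39.7, 37.1 and 43.8 and at 27.8, 26.3 and 30.4 reads per kb, and in no KO library. They were the 2 of 34 H3K27me3 regions around the clusters called in WT alone, and 1.32% of merged H3K27me3 regions of the genome were. Besides these, the 3 H3K9me3 regions and the H3K4me3 peak of Pcdha3 (1 of 40 regions, 0.743% over the genome), no region around the clusters was called in all libraries of 1 genotype and none of the other. Over the genome, 3.62% of H3K27ac and 2.09% of H3K4me1 regions were called in WT alone. In KO alone were 3.12% of H3K4me3, 1.8% of H3K27me3, 0.427% of H3K9me3, 1.35% of H3K27ac and 1.49% of H3K4me1 regions. At the first constant exon of Pcdhg an H3K4me3 peak (37824976 to 37825796) was called in WT2 and in all 3 KO libraries.

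H3K9me3 over Pcdhg was sparse. It covered 11.0, 10.2 and 11.8 kb in WT and 6.4, 6.6 and 9.8 kb in KO (exact permutation test, p = 0.1, adjusted p = 0.28). The direction did not hold when the same number of top-ranked calls was taken from every list, since the difference was then 5.6 kb. H3K4me1 covered 127.9, 132.3 and 123.7 kb of Pcdhg in WT and 138.5, 134.5 and 121.1 kb in KO (exact permutation test, p = 0.7), and the members varied from 3961 bp in every library at Pcdhga12 to 1969, 2000 and 3542 bp in WT and 2969, 1800 and 2169 bp in KO at Pcdhgb2.

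The marks overlapped unequally in the 3 clusters. All 21 members with H3K4me3 in WT also carried H3K27me3, as did all 21 in KO, while of all genes 4721 of 12162 with H3K4me3 did in WT and 4531 of 12185 in KO. Since 55 of 57 members carried H3K27me3 in each genotype, with or without H3K4me3, this overlap was nearly fixed by that count and adds little to it. In Pcdha, H3K27me3 consensus sequence of 98.2 kb and H3K9me3 consensus sequence of 77.2 kb shared 30.2 kb in WT, which is 30.8% of the first and 39.1% of the second. In KO they were 100.0 and 68.0 kb and shared 24.8 kb, or 24.8% and 36.5%. In Pcdhg, H3K27ac and H3K27me3 shared 15.4 kb in WT, or 33.7% of the H3K27ac, and 13.4 kb in KO, or 23.0% of it. No H3K27me3 window differed without overlap between the genotypes, against 1.1% of all genes higher and 0.883% lower, and most members were at the full length of their window, where covered sequence cannot show a difference in level.

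The member windows had a median GC content of 47.0% against 51.0% over all windows. Their median ratio of observed to expected CpG was 0.44 against 0.475. The windows were not matched in length or in their share of exon sequence. The clusters differed, with CpG ratios of 0.644 in Pcdha, 0.392 in Pcdhb and 0.493 in Pcdhg, and so did the Pcdhg subfamilies, with 0.425 for a-type and 0.644 for b-type exons. Members share sequence with each other, and reads that map to several places had been removed for the marks whose alignment is described, which does not include H3K9me3. The effect of shared sequence on the calls was not tested. Of the 50-bp words in the windows, 7.23% to 18.9% occurred elsewhere in the locus for Pcdha1 to Pcdha12, with Pcdha6 highest, 2.34% to 12.8% for Pcdhg b-type exons, 0% to 3.06% for a-type exons, 0% to 8.98% for Pcdhb and 0% for all c-type exons. Pcdha6 to Pcdha8 lay at 12.5% to 18.9%, and the other Pcdha windows without H3K4me3 in all 6 libraries, Pcdha10 and Pcdha11, at 10.9% and 13.0%. The windows of 6 Pcdhb genes overlap in pairs and share calls.

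Genes around and beside the clusters were counted for comparison. Of the 6 protein-coding genes that start inside or within 100 kb of the locus, none had less of any mark in every KO library, and 1, the read-through gene Gm42416, had more H3K4me1, over the sequence of Pcdha4. The windows of Gm37013 and Gm37388 also lie inside member windows, those of Pcdha6 and Pcdha7. Slc25a2 and Taf7 had no call of any mark and so could not have had less, which leaves Diaph1. Of 12 non-clustered protocadherins, which lie on other chromosomes or apart from the clusters, 12 carried H3K27me3 in both genotypes (33.4% and 33.8% of all genes) and none H3K9me3 (5.34% and 4.35%). H3K4me3 was called at 6 in WT and 5 in KO (55.7% and 55.8% of all genes), and 4 had less of it in every KO library (4.42% of all genes): Pcdh7, Pcdh8, Pcdh10 and Pcdh17, the last with 3210, 3191 and 2978 bp in WT and 780, 1842 and 1715 bp in KO. H3K27ac was lower without overlap at 2 (1.78% of all genes): Pcdh10, with 3776, 3176 and 1800 bp in WT and none in KO, and Pcdh7, with 3434, 3434 and 3234 bp in WT and 0, 3034 and 3034 bp in KO. H3K4me1 was lower at Pcdh18 (2716, 3116 and 2716 bp in WT, 2316, 2316 and 2516 bp in KO), 1 of 12 against 3.83% of all genes. Of 18 genes known to act on the clusters, 17 carried H3K4me3 and 18 H3K27ac in both genotypes. H3K4me3 was higher without overlap in KO at 2 of them, Ctcf (1005, 1009 and 999 bp in WT, 1028, 1049 and 1044 bp in KO) and Rest (321, 341 and 584 bp in WT, 804, 949 and 1125 bp in KO), and lower at 1, Ehmt1 (570, 557 and 555 bp in WT, 484, 511 and 504 bp in KO). H3K4me1 was lower at 1, Ehmt2. These counts were near the shares of all genes that met the same rules (9.22%, 4.42% and 3.83%).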

How the data were processed

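Lists of 5 histone marks in 3 IκBα-WT and 3 IκBα-KO libraries each (30 ChIP lists, 38 samples with 8 inputs) were used. Groups came from the genotype in the labels. According to the methods and the processing notes, 50-bp single-end reads were trimmed (Trim Galore 0.6.6) and aligned to GRCm38 (Bowtie2 2.4.4 for H3K4me3, H3K27me3 and H3K4me1), multimapped reads and reads with a mapping quality below 20 were removed, duplicates were marked (SAMtools 1.15), and peaks were called per library against 1 input per genotype, shared by H3K27ac and H3K4me1. The aligner for H3K27ac and the alignment and filtering of H3K9me3 are not given in the sources used here. Labels and methods differ on the H3K27ac antibody, for which the labels give that used against H3K4me1.

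The authors called H3K4me3 with MACS2 (2.2.7.1), and the deposited peaks give a fold enrichment, −log10 p- and q-values and a score. The authors called the other marks with epic2 (listed as SICER 0.0.52) in 200-bp steps at an FDR below 0.05, and the deposited lists give ChIP and input read counts per call, p-values and FDR, a log2 ratio of ChIP to input and a score. Every step from these lists on was computed here. The H3K4me3 lists hold no read counts, so depth is known only for the other marks. Depth bears on counting error only, while the edgeR errors also include variation between libraries.

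For each window and cluster, the bases under calls were counted, and ChIP counts were shared out by the bases of a call inside. Groups were compared with two-sided exact permutation tests, adjusted by Benjamini-Hochberg over the combinations of cluster and mark. Merged regions called in all 6 libraries were tested with edgeR 4.0.16 (quasi-likelihood, TMM, covered length as offset, R 4.3.3), with p-values adjusted over all regions and a threshold of 0.05. The SE of a log2 fold change was its absolute value divided by the square root of the F statistic. The fit was also run on counts simulated from its own dispersions, which cannot test the calling of regions or the input. DESeq2 1.42.0 was an alternative, and Python 3.11.15 was used for the rest. The exact p-values rest on the spread between the libraries of a genotype, and those of edgeR on a dispersion estimated with the help of all regions. The labels number the libraries and do not name the clone of each. No p-value covers the error of the 1 input per genotype. Members and lists were chosen with earlier results of these data known.

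Members were named by a rule: the c-type genes, members called in 1 genotype alone, members whose groups do not overlap, and the member with the highest and the lowest mean per mark and cluster; regions past the edgeR threshold; and, of the neighbours, the non-clustered protocadherins and the genes that act on the clusters, up to 3 whose groups do not overlap. Other members, genes and regions were named after their values were seen. Alternatives were a stricter threshold, equal numbers of top-ranked calls, other windows, other scalings and leaving out each library.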

Additional observations from a re-analysis of the deposited data

How the results depend on the processing

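Values below are KO minus WT. Of the 126 alternatives for covered sequence, 118 kept the direction and side of the threshold, as did 86 of 99 for reads per kb and 127 of 140 for members with a call. No cause was tested, and since the exact test cannot reach 0.05, only direction could move in these. At an FDR below 0.01 H3K27me3 over Pcdha covered 0.513 kb more in KO, and Pcdhg H3K27ac had -0.205 reads per kb. With equal numbers of top-ranked calls, H3K9me3 over Pcdhg covered 5.6 kb more in KO, members of Pcdhg with H3K27ac differed by 0.333, 1 member had more H3K4me3 without overlap and 1 had H3K9me3 in KO alone. Scaled to the library's reads in calls, the difference was -0.466 for Pcdha H3K27me3, 0.257 for Pcdha H3K9me3, 0.0679 for Pcdhb H3K9me3 and -0.199 for Pcdhg H3K27ac. As a ratio of ChIP to input it was -0.415 for Pcdha H3K27me3, 0.0269 for Pcdhb H3K9me3, 0.0338 for Pcdha H3K4me1 and -0.0121 for Pcdhb H3K4me1. With windows of 1 kb on either side of the 5′ end, members with a call differed by 0.333 (Pcdhb H3K27me3), -0.333 (Pcdhg H3K27ac) and -0.333 (Pcdha H3K4me1). Members without overlap then numbered 1 with less H3K4me3, 0 with more and 0 with less H3K9me3, and 1 with more and 1 with less H3K4me1. The H3K4me3 call of Pcdha3 in WT alone became 0 members in these windows and 0 at an overlap of at least 10% of the window, where 1 member was called in KO alone.

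The edgeR counts were 119 regions for H3K9me3, against 279 by DESeq2 and 451 without length offset, and 2516 for H3K4me1, against 4758 without length offset. The H3K27ac region at the end of Pcdhg had a log2 fold change of 0.07 without TMM and was lost there and without WT1 or KO2, and it could not be tested without the length offset.

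With 1 library left out, covered kb ranged from -5.62 to 1.8 (Pcdha H3K27me3), from -0.6 to 1 (Pcdha H3K27ac) and from -0.164 to 8.54 (Pcdhg H3K4me1). Reads per kb ranged from -8.68 to 0.189 (Pcdha H3K9me3), from -0.841 to 0.0168 (Pcdhb H3K27me3), from -2.22 to 6.75 (Pcdhb H3K4me1) and from -3.79 to 5.00 (Pcdhg H3K9me3). Members with a call ranged from -0.167 to 1.33 (Pcdha H3K27me3), from -0.333 to 0.333 (Pcdhg H3K27ac) and from -0.333 to 0.667 (Pcdha H3K4me1). Members without overlap numbered 2 to 5 with more and 2 to 5 with less H3K4me3, 0 to 1 and 0 to 2 for H3K27me3, 1 to 2 with less H3K9me3, 0 to 1 and 0 to 1 for H3K27ac, and 2 to 5 and 3 to 6 for H3K4me1. The edgeR counts were 266 to 497 for H3K27me3 (514 with all libraries), 38 to 107 for H3K9me3 and 1659 to 1831 for H3K4me1, and the H3K27ac region ranged from 0.12 to 0.15.

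Same-numbered WT and KO libraries had correlations of -0.0179 to 0.0267 in their deviations from the group means, and not every library correlated best with its own number. The deviations were taken per region after scaling to each library's reads, so a level shared by same-numbered libraries could not show. H3K4me3 was not included. For H3K9me3, reads per kb over all calls were 59.2 in WT1 and 62.1 in KO1, and 49.6 to 51.0 in the other libraries. Whether the numbers pair the libraries was therefore not settled. With the replicate number as a block, edgeR called 479, 90, 2844 and 2124 regions for H3K27me3, H3K9me3, H3K27ac and H3K4me1, against 514, 119, 1968 higher plus 1097 lower, and 2516 without it, and the log2 fold changes of the 2 regions called at Pcdhg were -0.45 and 0.14.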
